A study of Homo sapiens with 8 samples.

Results

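Transcripts of 9 genes of plasminogen activation and matrix remodelling were followed through the 8 RNA-seq libraries of the study. These were the plasminogen activators PLAU and PLAT, the PLAU receptor PLAUR, the matrix metalloproteinases MMP1, MMP2, MMP3 and MMP14, and the metalloproteinase inhibitors TIMP1 and TIMP3. The genes were chosen by name, and each symbol was mapped to its Ensembl identifier with release 29 of the GENCODE annotation, which gave 9 of the 58735 genes in the files. Urokinase (PLAU) and tissue plasminogen activator (PLAT) cut plasminogen to plasmin, a protease of broad range, and PLAUR holds PLAU at the cell surface. Plasmin can in turn process inactive precursors of several metalloproteinases, which cut collagens and other matrix proteins and are held back by the TIMP proteins. PLAU, several metalloproteinases and their inhibitors are known to respond to inflammatory cytokines in connective tissue cells, and their activity is set largely after transcription, at steps that RNA levels do not show.

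The cells were U2OS, an established human osteosarcoma line, infected with lentivirus carrying a short hairpin RNA and selected with puromycin. The 4 groups of 2 libraries each were cells with a control shRNA (shControl, called WT in the labels and control here) without stimulation, cells with a shRNA against WSB2 (shWSB2, the KD cells) without stimulation, control cells given TNF-α over 5 h, and KD cells given the same. WSB2 is a substrate-recognition subunit of a ubiquitin ligase, and the design asked how its loss changes transcription with and without this cytokine. The sources do not say which WSB2 hairpin was sequenced, at which concentration TNF-α was given, or whether the replicates were separate cultures, so the p-values measure the spread between libraries only, which may be technical.

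Promoter sequences from RefSeq (GRCh38.p14) were searched for 5 of the 9 genes, PLAU, PLAUR, MMP14, TIMP1 and TIMP3, in 6 windows of 300 bases that run from 250 bases before a transcription start to 50 bases after it. PLAT was left out of the search, and no windows were at hand for MMP1, MMP2 and MMP3, so nothing below covers these genes. The windows of the 3 genes with the widest range of expression over the 4 groups, PLAU, PLAUR and TIMP1, are printed 5′ to 3′ on the strand of the gene. Capitals mark the matches, on either strand, to the AP-1 motif (TGANTCA) and to the core ETS motif (AGGAAG), whose factors are known regulators of protease genes. The motifs do not overlap in these windows.
PLAU, chr10:73910882-73911181, plus strand: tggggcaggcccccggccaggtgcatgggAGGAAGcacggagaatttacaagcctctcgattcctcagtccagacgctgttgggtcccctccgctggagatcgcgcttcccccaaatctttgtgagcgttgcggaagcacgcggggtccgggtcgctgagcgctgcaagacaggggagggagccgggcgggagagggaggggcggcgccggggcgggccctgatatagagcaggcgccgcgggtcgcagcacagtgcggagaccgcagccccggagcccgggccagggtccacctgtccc
PLAUR, chr19:43670120-43670419, minus strand: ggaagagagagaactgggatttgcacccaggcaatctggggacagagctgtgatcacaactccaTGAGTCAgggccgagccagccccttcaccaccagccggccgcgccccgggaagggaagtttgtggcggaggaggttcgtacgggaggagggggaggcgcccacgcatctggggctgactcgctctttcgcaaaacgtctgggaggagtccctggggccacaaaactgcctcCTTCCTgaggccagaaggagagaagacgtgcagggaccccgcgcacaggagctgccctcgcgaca
TIMP1, chrX:47582186-47582485, plus strand: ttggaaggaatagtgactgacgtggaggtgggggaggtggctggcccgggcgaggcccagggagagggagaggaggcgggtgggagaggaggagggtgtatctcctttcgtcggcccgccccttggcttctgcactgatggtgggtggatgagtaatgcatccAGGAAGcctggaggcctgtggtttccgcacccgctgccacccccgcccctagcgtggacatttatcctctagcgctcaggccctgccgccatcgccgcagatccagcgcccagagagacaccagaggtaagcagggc
The PLAUR window held an AP-1 match, TGAGTCA, between 186 and 180 bases before the start, and an ETS match on the opposite strand between 15 and 10 bases before it. The PLAU window held 1 ETS match, between 221 and 216 bases before the start, and the TIMP1 window held 1 between 87 and 82 bases before it. Among 35116 promoters of the same length, 7.71% held the AP-1 motif and 33.6% the ETS motif, so the ETS match is a common one. A TATA box (TATAAA, in 11.5% of all promoters) and the κB consensus, by which NF-κB is usually found (in 11.3%), had no match in any of the 6 windows. The window at the other annotated start of PLAU, chr10:73910360-73910659, and those of MMP14 and TIMP3 held no match to the motifs searched. These are letter matches only and say nothing of binding by a factor. Sites that depart from the letters searched were not looked for, so a window without a match may still hold a variant of a motif.

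The libraries held 15601098 to 18677023 reads. WSB2 stood at 27.7 and 28 FPKM (fragments scaled to exon length and library size) in unstimulated control cells and 8.38 and 8.52 in unstimulated KD cells, and at 25.0 and 25.3 against 9.002 and 9.18 with TNF-α, so the targeted transcript followed the labels. The unstimulated KD libraries stood apart from the other 6. Between 4.10% and 4.42% of their reads came from the mitochondrial genome, where the others had 1.11% to 2.03%. Their mean GC content over reads lay between 49.4% and 49.9%, where the 6 others lay between 52.5% and 53.2%. They detected 26225 and 26397 genes, and the others between 22072 and 22957. Over 16520 genes, the difference between unstimulated KD and control cells ran against GC content with a Spearman correlation of -0.68 across genes, which share their libraries and are not independent. The part of this composition in the results below was not tested beyond an alternative that removes a GC and length trend. It enters the differences of 3 of the 5 comparisons. These are KD against control cells without TNF-α, TNF-α in KD cells, and the interaction. The spread was estimated over all 8 libraries together, so every library enters the p-values and intervals of all 5. The unstimulated control libraries differed most from each other, with a mean chi-square against sampling noise of 30.1 per gene (genes of at least 50 reads). It was 7.23 for the unstimulated KD pair, and with TNF-α 4.31 for the control pair and 2.45 for the KD pair. Of the osteoblast lineage markers, COL1A1 stood at 172 to 269 FPKM and SPARC at 216 to 293, whereas COL1A2 had 82 reads, BGLAP 25, SP7 1 and IBSP 0 in all libraries together. The 8 osteoblast markers summed to 392 to 401 FPKM in unstimulated KD cells and 509 to 536 in the other groups, the 3 mesenchymal markers to 293 to 354, the 4 epithelial markers to 13.9 to 25.3 (nearly all KRT14), the 3 leukocyte markers to at most 0.302 and the 3 endothelial markers to at most 0.445.

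PLAU (ENSG00000122861, chromosome 10, 73909177 to 73917497, GRCh38, plus strand) stood at 11.1 and 10.8 FPKM in unstimulated control cells, 8.72 and 7.87 in unstimulated KD cells, 24.2 and 21.0 in control cells with TNF-α and 31.5 and 30.9 in KD cells with TNF-α. No libraries of different groups overlapped for PLAU, and its 4 groups ran in the order unstimulated KD, unstimulated control, control with TNF-α and KD with TNF-α. PLAUR (ENSG00000011422, chromosome 19, 43646095 to 43670547, minus strand) stood at 45.1 and 37.4 FPKM in unstimulated control cells, 25.5 and 25.3 in unstimulated KD cells, 47.5 and 49.4 in control cells with TNF-α and 65.3 and 63.8 in KD cells with TNF-α. The groups followed the same order without overlap, but the unstimulated control libraries lay farther apart than those of any other group. PLAT (ENSG00000104368, chromosome 8, 42175233 to 42207724, minus strand), the activator best known from fibrinolysis, was lower and flatter. It stood at 8.33 and 8.31 FPKM in unstimulated control cells, 6.88 and 6.69 in unstimulated KD cells, 8.98 and 8.53 in control cells with TNF-α and 10.2 and 10.6 in KD cells with TNF-α.

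MMP2 (gelatinase A, ENSG00000087245, chromosome 16, 55389700 to 55506691, plus strand) was the most abundant of the 4 metalloproteinases in 3 of the 4 groups. It stood at 76.3 and 73.8 FPKM in unstimulated control cells, 58.1 and 55.0 in unstimulated KD cells, 75.5 and 73.7 in control cells with TNF-α and 84.5 and 79.0 in KD cells with TNF-α, and the 2 control groups overlapped. MMP3 (stromelysin 1, which also activates other metalloproteinases, ENSG00000149968, chromosome 11, 102835801 to 102843803, minus strand) stood at 48.4 and 45.7 FPKM in unstimulated control cells, 41.2 and 43.1 in unstimulated KD cells, 58.3 and 57.4 in control cells with TNF-α and 80.9 and 86.1 in KD cells with TNF-α. Its 4 groups did not overlap, and in KD cells with TNF-α it reached the level of MMP2. MMP14 (the membrane-anchored enzyme that activates MMP2, ENSG00000157227, chromosome 14, 22836557 to 22849027, plus strand) stood at 52.6 and 48.1 FPKM in unstimulated control cells, 39.3 and 36.5 in unstimulated KD cells, 50.1 and 53.2 in control cells with TNF-α and 63.7 and 64.4 in KD cells with TNF-α. As for MMP2, the 2 control groups overlapped and the KD groups lay below and above them.

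MMP1 (interstitial collagenase, ENSG00000196611, chromosome 11, 102789920 to 102798160, minus strand) was near the limit of detection, with 79 reads in all libraries together. Its reads numbered 7 and 14 in unstimulated control cells, 17 and 15 in unstimulated KD cells, 6 and 4 in control cells with TNF-α and 12 and 4 in KD cells with TNF-α, or 0.128 to 0.435 FPKM. At this depth a moderate change of MMP1 was not detectable, and the log2(FPKM + 1) scale of the test understates the change of a gene at this level.

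TIMP1, a secreted inhibitor of most metalloproteinases (ENSG00000102265, chromosome X, 47582313 to 47586789, plus strand), had the highest level of the 9 genes in every group. It stood at 599.7 and 431 FPKM in unstimulated control cells, 297 and 310.4 in unstimulated KD cells, 518 and 496 in control cells with TNF-α and 651 and 650.3 in KD cells with TNF-α. The unstimulated control libraries were the farthest apart and enclosed both control libraries with TNF-α. TIMP3, the inhibitor that stays bound to the matrix (ENSG00000100234, chromosome 22, 32801701 to 32863043, plus strand), stood at 25.1 and 27.9 FPKM in unstimulated control cells, 17.4 and 18.8 in unstimulated KD cells, 22.5 and 22.6 in control cells with TNF-α and 22.3 and 23.3 in KD cells with TNF-α. Its highest libraries were those of unstimulated control cells, whereas 7 of the other genes were highest in KD cells with TNF-α.

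**Figure D1:**
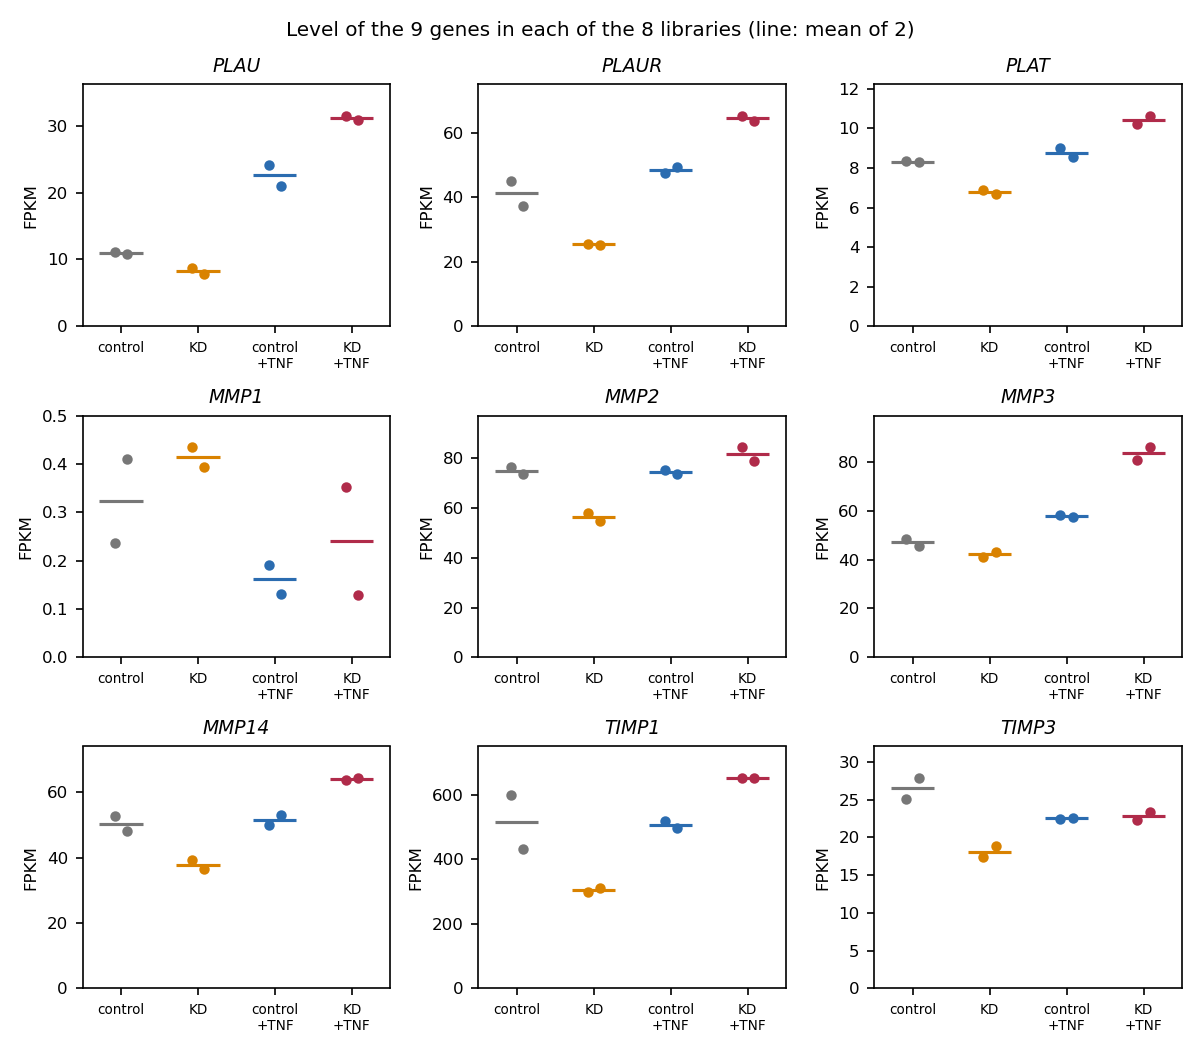
Level of each of the 9 genes in FPKM (vertical axes from 0, a scale of its own for each gene) in the 4 groups of 2 libraries, with a point for each library and a line at the mean. For 7 of the 9 genes the KD libraries with TNF-α lie highest, while TIMP3 is highest in unstimulated control cells and MMP1, at 4 to 17 reads per library, scatters within its groups.

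FPKM is scaled to exon length, so the levels of the genes can be ordered within a group. TIMP1 was first and MMP1 last in all 4 groups, with PLAT next to last. Most neighbours in the order did not overlap between their libraries. The exceptions were MMP14 and MMP3 in unstimulated control cells, PLAU and TIMP3 in control cells with TNF-α, and MMP3 with MMP2 and PLAUR with MMP14 in KD cells with TNF-α. PLAU moved from below TIMP3 without TNF-α to its level in control cells and above it in KD cells, where the means were 31.2 and 22.8 FPKM. All 9 genes passed the filter on low reads, and 8 of them had 7134 to 101336 reads over the libraries. Exons of PLAU share 916 bases with C10orf55 on the opposite strand, exons of MMP1 and MMP3 share 150 and 32 bases with the pseudogene WTAPP1, and MMP2 shares 174 bases with AC007336.3, which the files give 47, 67 and 5 reads in all. The sources do not state whether counting used strand, so reads in these overlaps cannot be told apart from those of the partner.

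In control cells TNF-α raised 1 gene of the set past the threshold. PLAU rose 1.97-fold, a difference of 0.98 ± 0.09 (SE) on the log2(FPKM + 1) scale (adjusted p = 0.00103, limma with Benjamini-Hochberg adjustment over 16528 genes), and both libraries with TNF-α lay above both without. A gene was called at an adjusted p under 0.05 here and below. Of all genes tested, 3.1% were called higher and 1.14% lower, against 1 and 0 of the 9, and higher calls made up 73.0% of all calls, or 60.3% with scaling to total reads. MMP3 was higher in both libraries with TNF-α by 0.29 ± 0.08 and did not pass (adjusted p = 0.0833), and PLAUR was higher by 0.23 ± 0.10 (adjusted p = 0.265). With unstimulated control replicate 1 left out, MMP3 (0.33, adjusted p = 0.0464) and PLAUR (0.36, adjusted p = 0.0235) also passed, and without unstimulated control replicate 2 PLAUR stood at 0.0990 (adjusted p = 0.320). MMP3 passed with the GC and length trend removed (0.34, adjusted p = 0.0165), and the other scalings gave 0.22 and 0.26.

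The other 6 members did not pass in control cells, and the intervals of their differences were narrow for all but TIMP1. The 95% interval was -0.19 to 0.17 for MMP2, -0.15 to 0.22 for MMP14, -0.12 to 0.25 for PLAT and -0.38 to 0.37 for TIMP1. TIMP3 was lower in both libraries with TNF-α, by -0.22 with an interval of -0.41 to -0.03 and an adjusted p of 0.215. MMP1 differed by -0.19 with an interval of -0.42 to 0.05. The median over the 9 genes was 0.04, beside 0.01 over all genes.

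In KD cells the same stimulation went with more calls, in libraries that also differed in composition. Of the 9 genes, 8 rose and none fell, where 31.1% of all genes tested were called higher and 31.4% lower. The median over the 9 was 0.74 against -0.01 over all genes. Without overlap between groups, PLAU rose by 1.79 ± 0.09 (3.46-fold, adjusted p = 1.94e-05), PLAUR by 1.31 ± 0.10 (2.48-fold, adjusted p = 5.62e-05) and PLAT by 0.55 ± 0.08 (adjusted p = 0.000575). Among the proteases MMP3 rose by 0.97 ± 0.08 (1.96-fold, adjusted p = 6.46e-05), MMP14 by 0.74 ± 0.08 (adjusted p = 0.000187) and MMP2 by 0.53 ± 0.08 (adjusted p = 0.000652), while MMP1 differed by -0.20 with an interval of -0.43 to 0.04, which turned to 0.03 with the GC and length trend removed. Under that alternative PLAUR (0.87, adjusted p = 0.000160) and MMP14 (0.20, adjusted p = 0.0151) kept their calls at smaller values. With scaling to total reads MMP14 was at 0.37 and MMP3 at 0.60 (adjusted p = 0.000232).

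The inhibitors rose as well in KD cells. TIMP1 rose by 1.10 ± 0.16 (2.14-fold, adjusted p = 0.000679), or by 0.57 with the GC and length trend removed (adjusted p = 0.00357) and 0.72 with total reads. TIMP3 rose by 0.32 ± 0.08 (adjusted p = 0.0102), which turned to -0.04 (adjusted p = 0.708) when each library was scaled to its total reads and stood at 0.20 with the trend removed and 0.52 with upper-quartile factors. With total reads the median of all genes moved to -0.19 and the share of calls that were higher from 49.8% to 31.4% (60.1% with upper-quartile factors), and 8 of the 9 genes still lay above the median. PLAT (0.21, adjusted p = 0.0595) and MMP2 (0.15, adjusted p = 0.103) then no longer passed, and with the GC and length trend removed MMP2 did not either (0.07, adjusted p = 0.345). TIMP3 also lost its call without unstimulated KD replicate 1 (0.27, adjusted p = 0.0686) or without KD replicate 2 with TNF-α (0.29, adjusted p = 0.0774), and MMP1 gained a call as lower without KD replicate 1 with TNF-α (-0.33, adjusted p = 0.0292).

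**Figure D2:**
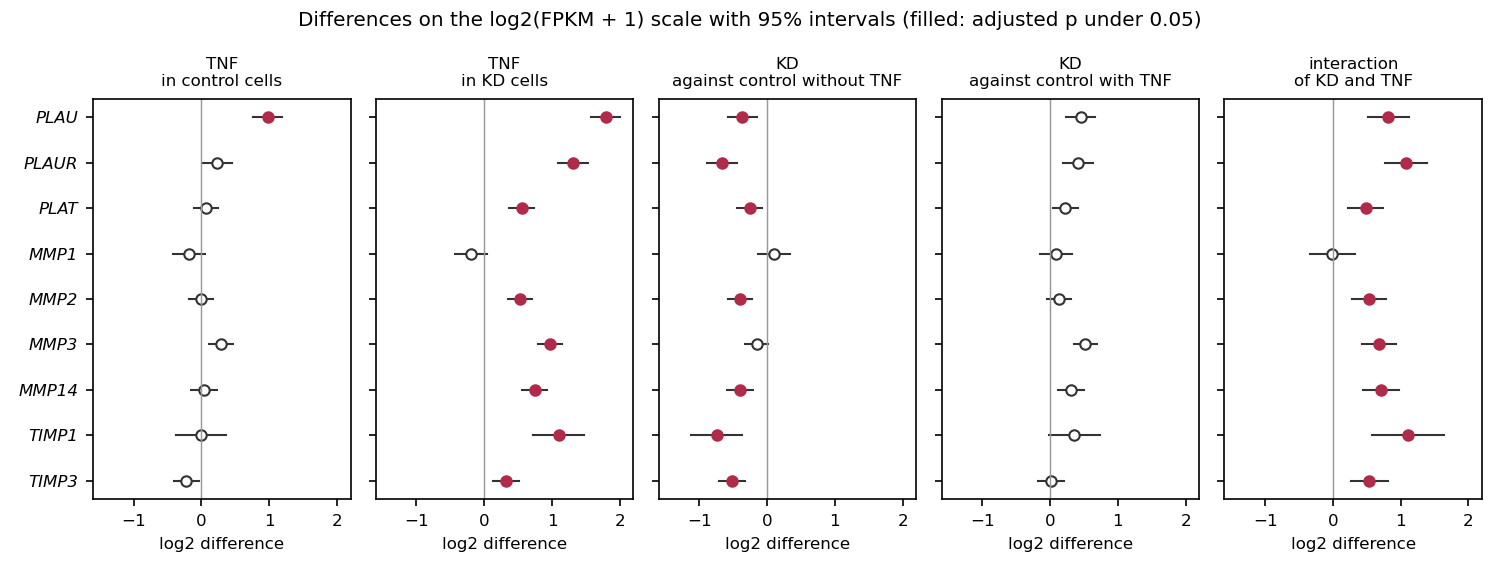
Differences of the 9 genes on the log2(FPKM + 1) scale in the 5 comparisons, as points with 95% intervals, filled where the adjusted p was under 0.05. In control cells with TNF-α 1 gene is filled and in KD cells 8, while for KD against control the points lie mostly below 0 without TNF-α and above 0 with it, none of the latter filled. The directions shown are those of the deposited scaling, and without TNF-α those of PLAU, MMP1 and MMP14 turn with the GC and length trend removed and that of MMP3 with scaling to total reads.

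Without TNF-α, most of the set was lower in KD cells than in control cells as the values were deposited. Of the 9 genes 7 fell and none rose, where 30.2% of all genes tested were called lower and 29.8% higher, and the median over the 9 was -0.40 against 0.00 over all genes. In bulk RNA, fewer cells with a transcript and less transcript per cell cannot be told apart. TIMP1 fell by 0.74 ± 0.16 (adjusted p = 0.00499), PLAUR by 0.67 ± 0.10 (adjusted p = 0.000689) and TIMP3 by 0.52 ± 0.08 (adjusted p = 0.00103). MMP2 fell by 0.40 ± 0.08 (adjusted p = 0.00263) and PLAT by 0.26 ± 0.08 (adjusted p = 0.0216). PLAU fell by 0.36 ± 0.09 (adjusted p = 0.00986) and MMP14 by 0.40 ± 0.08 (adjusted p = 0.00353), and both turned, to 0.02 and 0.09, with the GC and length trend removed. MMP3 was lower in both KD libraries but did not pass at -0.16 (interval -0.33 to 0.02), and the scaling set its sign and its call, with 0.12 for total reads (not called), -0.40 for upper-quartile factors (adjusted p = 0.00609) and -0.22 with the GC and length trend removed (adjusted p = 0.0154). MMP1 differed by 0.10 with an interval of -0.13 to 0.33, and by -0.08 with the GC and length trend removed.

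PLAUR and TIMP3 were the members that stayed called as lower under every scaling tried. The PLAUR value ran from -0.91 with upper-quartile factors to -0.29 with the GC and length trend removed, and TIMP3 from -0.76 with upper-quartile factors to -0.25 with scaling to total reads (-0.43 with the trend removed). With upper-quartile factors 8 of the 9 genes were called as lower, from -0.40 for MMP3 to -0.99 for TIMP1, and with the trend removed 4 were, PLAUR, TIMP3, MMP3 and PLAT, the last at -0.45. Scaling to total reads moved the median of all genes to 0.13 and upper-quartile factors moved it to -0.12, and the share of calls that were higher moved from 49.7% to 65.3% and to 37.8%. Relative to that median, 8 of the 9 genes lay below it under each of the 3 scalings, MMP3 at -0.01 with total reads. With scaling to total reads PLAU (-0.11), PLAT (-0.01), MMP2 (-0.13) and MMP14 (-0.13) no longer passed, and with the GC and length trend removed TIMP1 (-0.22, adjusted p = 0.138) and MMP2 (-0.01) did not. PLAU lost its call without unstimulated KD replicate 2 (-0.30, adjusted p = 0.0722), PLAT without either unstimulated KD library (adjusted p = 0.0661 and 0.104), and MMP3 gained one without unstimulated control replicate 2 (-0.20, adjusted p = 0.0380).

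**Figure D3:**
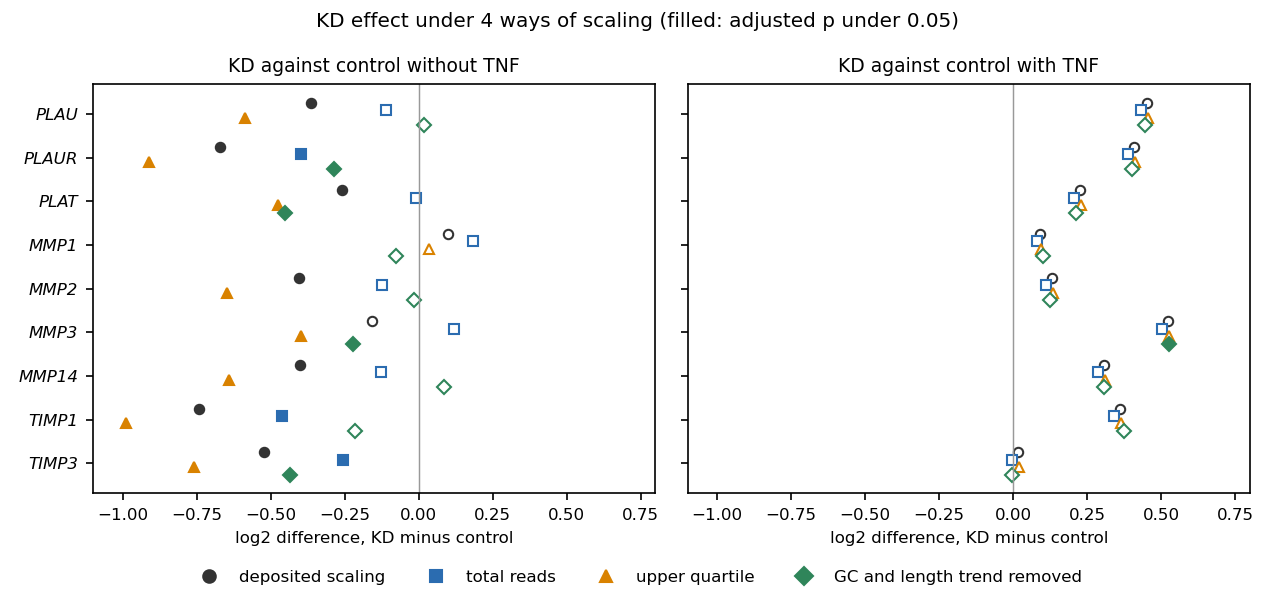
Difference between KD and control cells for the 9 genes (log2 scale, KD minus control) without TNF-α on the left and with it on the right, under the deposited scaling, total reads, upper-quartile factors and removal of a GC and length trend, filled where the adjusted p was under 0.05. Without TNF-α the values of a gene spread with the scaling, and the signs of PLAU, MMP1, MMP3 and MMP14 depend on it. With TNF-α the symbols of each gene nearly coincide, only MMP3 with the trend removed is filled, and TIMP3 lies at 0 with a sign that depends on the scaling.

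In KD against control with TNF-α, limma called 0 of the 9 genes, where 0.0605% of all genes were called higher and 0.0545% lower. The unstimulated KD libraries do not enter this difference of means, but they share in the estimate of its spread. At an unadjusted p under 0.05 there were 5, PLAU, PLAUR, PLAT, MMP3 and MMP14, all higher in KD cells. The share of all genes at that threshold was not counted, here or for the lists below, so these counts have no background. A voom fit of the recovered reads called 1 of the 9, beside 52 of all 16528 genes tested. The KD libraries lay above the control libraries without overlap for 7 of the 9 genes. The share of all genes with that order was not counted, so this count has no background either and is not a result about the 9 genes. In the related lists below it held for 7 of 10 plasminogen genes and 3 of 11 other metalloproteinases, with 3 and 2 the other way. It held for 3 of 8 further inhibitors and activators and 6 of 12 ADAM and ADAMTS genes, with 2 the other way in each. The median over the 9 was 0.31 against 0.00 over all genes. MMP3 came closest, at 80.9 and 86.1 FPKM against 58.3 and 57.4, a difference of 0.52 ± 0.08 (interval 0.35 to 0.70, adjusted p = 0.0786). Its value hardly moved with the processing, from 0.50 to 0.53, but its adjusted p ran from 0.0175 to 0.216 and with a library left out from 0.389 to 0.648. It passed with the GC and length trend removed, in the voom fit (adjusted p = 0.0418) and with only the 4 libraries compared in the fit (adjusted p = 0.0451).

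PLAU, PLAUR and PLAT also had higher means in KD cells with TNF-α, but none of these differences was called. PLAU differed by 0.45 (interval 0.24 to 0.66, adjusted p = 0.170), PLAUR by 0.41 (0.19 to 0.63, adjusted p = 0.232) and PLAT by 0.23 (0.04 to 0.41, adjusted p = 0.480). MMP14 differed by 0.31 (interval 0.12 to 0.50, adjusted p = 0.294) and MMP2 by 0.13 (-0.05 to 0.31). Of the inhibitors, TIMP1 differed by 0.36 with a wide interval of -0.01 to 0.73, although all 4 libraries were separate by group. That width reflects the spread over all 8 libraries, of which the unstimulated control pair, at 599.7 and 431 FPKM, lay farthest apart. TIMP3 differed by 0.02 with an interval of -0.17 to 0.21. MMP1 differed by 0.09 with an interval of -0.14 to 0.32. The values were the same without the unstimulated KD libraries in the fit, with 0 of the 9 genes called. Of all genes 7 were then called, beside 19 in the reported fit.

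The difference of the TNF-α effect between KD and control cells was tested as an interaction. It passed as higher for 8 of the 9 genes and as lower for none, where 23.8% of all genes were called higher and 22.3% lower, and its median over the 9 was 0.68 against 0.01 over all genes. It was 1.08 ± 0.14 for PLAUR (adjusted p = 0.00163), 0.82 ± 0.13 for PLAU (adjusted p = 0.00280) and 0.49 ± 0.11 for PLAT (adjusted p = 0.00960). For MMP14 it was 0.71 ± 0.11, for MMP3 0.68 ± 0.11 and for MMP2 0.53 ± 0.11, with adjusted p of 0.00292, 0.00269 and 0.00617. For TIMP1 it was 1.10 ± 0.23 (adjusted p = 0.00669), for TIMP3 0.54 ± 0.12 (adjusted p = 0.00759) and for MMP1 -0.01 with an interval of -0.34 to 0.32. By its arithmetic the interaction is the KD difference with TNF-α less that without, and which of both was larger in size depended on the scaling for all called members but TIMP3, where it was the one without TNF-α, and MMP3, where it was the one with TNF-α, under the deposited values, total reads, upper-quartile factors and removal of the trend. Scaling to total reads moved the median of all genes to -0.14 and the share of higher calls from 51.7% to 33.0% (64.9% and a median of 0.12 with upper-quartile factors), and it left 5 genes called, without PLAT, MMP2 and TIMP3, and removal of the GC and length trend left 6, without MMP2 (0.14) and MMP14 (0.22, adjusted p = 0.0596). Among the 6 it left PLAUR at 0.69, PLAU at 0.43 and TIMP1 at 0.59, each smaller than reported by over 1.5 times, and total reads left MMP14 at 0.41, MMP3 at 0.38 and PLAU at 0.54.

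Ratios of FPKM within a library do not depend on how the libraries were scaled against each other but can move with GC content where the 2 genes differ in it, and they were chosen after the values of the genes had been seen. For each 100 FPKM of PLAUR there were 24.7 and 28.7 FPKM of PLAU in unstimulated control cells, 34.2 and 31.1 in unstimulated KD cells, 50.9 and 42.5 in control cells with TNF-α and 48.2 and 48.4 in KD cells with TNF-α. PLAU thus gained on its receptor with TNF-α in both kinds of cell, and the KD libraries with TNF-α fell within the range of the control libraries. MMP3 per 100 of TIMP1 was 8.08 and 10.6 in unstimulated control cells, 13.9 and 13.9 in unstimulated KD cells, 11.3 and 11.6 in control cells with TNF-α and 12.4 and 13.2 in KD cells with TNF-α, and the KD libraries lay above the control libraries at each condition as deposited. MMP3 has 44.8% GC and TIMP1 57.9%, and with the GC and length trend removed both differed by -0.22 between KD and control cells without TNF-α, so that the difference of this ratio without TNF-α was then gone. With TNF-α the values with the trend removed were 0.53 for MMP3 and 0.37 for TIMP1. MMP2 per 100 of TIMP2, the inhibitor that takes part in its activation by MMP14, was 124 to 148 in 6 libraries and 176 and 161 in KD cells with TNF-α.

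**Figure D4:**
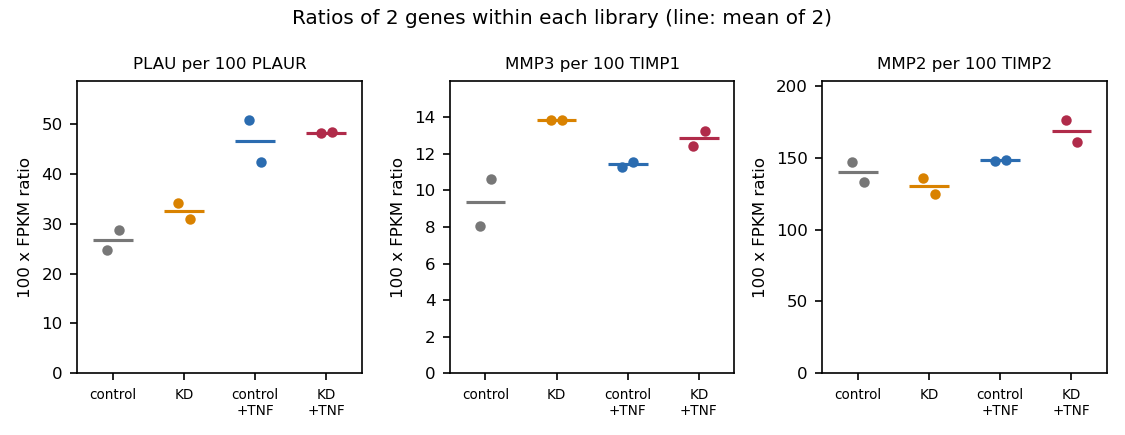
Ratio of the FPKM of a gene to 100 FPKM of a partner in the same library, for PLAU to PLAUR, MMP3 to TIMP1 and MMP2 to TIMP2 (points for libraries, lines for the mean of 2). PLAU to PLAUR is higher in the 4 libraries with TNF-α than in the 4 without, and MMP3 to TIMP1 is higher in KD than in control libraries at each condition as deposited, a difference that without TNF-α is gone once the GC and length trend is removed (-0.22 for both genes).

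Other genes of the plasminogen system were called in KD cells and not in control cells with TNF-α. Of 14 genes in that list 10 were tested, and TNF-α in control cells gave 0 calls with limma (1 at an unadjusted p under 0.05, 1 in the voom fit). In KD cells 7 of the 10 rose with TNF-α and none fell, beside 31.1% and 31.4% of all genes, and 4 rose with scaling to total reads. Without TNF-α 5 were lower and 1 higher in KD cells, beside 30.2% and 29.8% of all genes, with 3 lower for total reads and 7 for the GC and length trend removed. The 1 higher gene, SERPINE2, an inhibitor of thrombin and PLAU that was named after its values were seen, differed by 0.27 (adjusted p = 0.0115) and by -0.34 with the trend removed, where it was called as lower (adjusted p = 0.00281). With TNF-α none was called in KD against control (2 at an unadjusted p under 0.05, 0 in the voom fit). With the GC and length trend removed 2 were called there as higher, where 46 of all genes were. They were SERPINE2 (0.39, adjusted p = 0.0499) and SERPINB2 (0.45, adjusted p = 0.0492). In the reported fit 5 interactions were called, all higher (4 to 7 under the scalings tried), beside 23.8% of all genes. The medians of the 10 genes were 0.08, 0.40, -0.29, 0.09 and 0.43 in this order. ENO1, a glycolytic enzyme that can also bind plasminogen, and S100A10, part of a plasminogen-binding complex with ANXA2, were lower in unstimulated KD cells by 1.11 and 0.86 on the log2 scale and rose with TNF-α in KD cells by 1.07 and 0.84. With the GC and length trend removed the values of S100A10 were -0.39 and 0.37 and those of ENO1 -0.89 and 0.77, and with total reads those of ENO1 were -0.83 and 0.69 and those of S100A10 -0.57 and 0.46, all called. SERPINB2, an inhibitor of PLAU, had 0 and 0 reads in unstimulated control cells, 1 and 1 in unstimulated KD cells, 8 and 5 in control cells with TNF-α and 23 and 28 in KD cells with TNF-α, and it passed the test in KD cells (adjusted p = 0.000149) but not in control cells (0.150), where a count of 0 allows up to 3 reads in a library. PLG, which encodes plasminogen itself and was singled out after its values were seen, had 0 reads in all 8 libraries.

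The other metalloproteinases held the largest TNF-α effect of the family. Of 19 genes 11 were tested, and 2 rose in control cells with TNF-α, MMP9 and MMP13, beside 3.1% of all genes. MMP9 (gelatinase B) went from 2.34 and 2.72 FPKM to 20.7 and 21.9 in control cells, a rise of 2.66 (adjusted p = 1.24e-05), and from 2.07 and 2.53 to 27.2 and 28.1 in KD cells, a rise of 3.12 (adjusted p = 3.44e-06). Its interaction was 0.46 (adjusted p = 0.0324), but it lost its call with total reads (0.24, adjusted p = 0.254) and turned to -0.17 with the GC and length trend removed (adjusted p = 0.547), and with TNF-α KD and control cells differed by 0.36 (adjusted p = 0.330). MMP13 (collagenase 3) rose by 0.86 in control cells (adjusted p = 0.0109), from 0.400 and 0.673 FPKM to 1.75 and 1.78, and was at 1.39 in both unstimulated KD libraries, 0.64 above control cells (adjusted p = 0.00324), a call lost with the trend removed (0.18, adjusted p = 0.277). In KD cells 7 of the 11 rose with TNF-α (4 with total reads), and MMP16 fell by 1.32, or by 0.52 with the trend removed. Of all genes 31.1% rose and 31.4% fell in that comparison. Without TNF-α 2 of the 11 were higher in KD cells, MMP13 and MMP16, the latter by 1.23, and 4 were lower, among them MMP24 by 0.76 and MMP15 by 0.60. Of all genes 29.8% were called higher there and 30.2% lower. With the trend removed these 2 higher and 4 lower calls became 3 and 1, MMP16 stood at 0.37, and MMP24 (-0.23, adjusted p = 0.0599) and MMP15 (0.00) lost their calls. With TNF-α none of the 11 was called in KD against control (2 at an unadjusted p under 0.05, 0 in the voom fit).

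**Figure D5:**
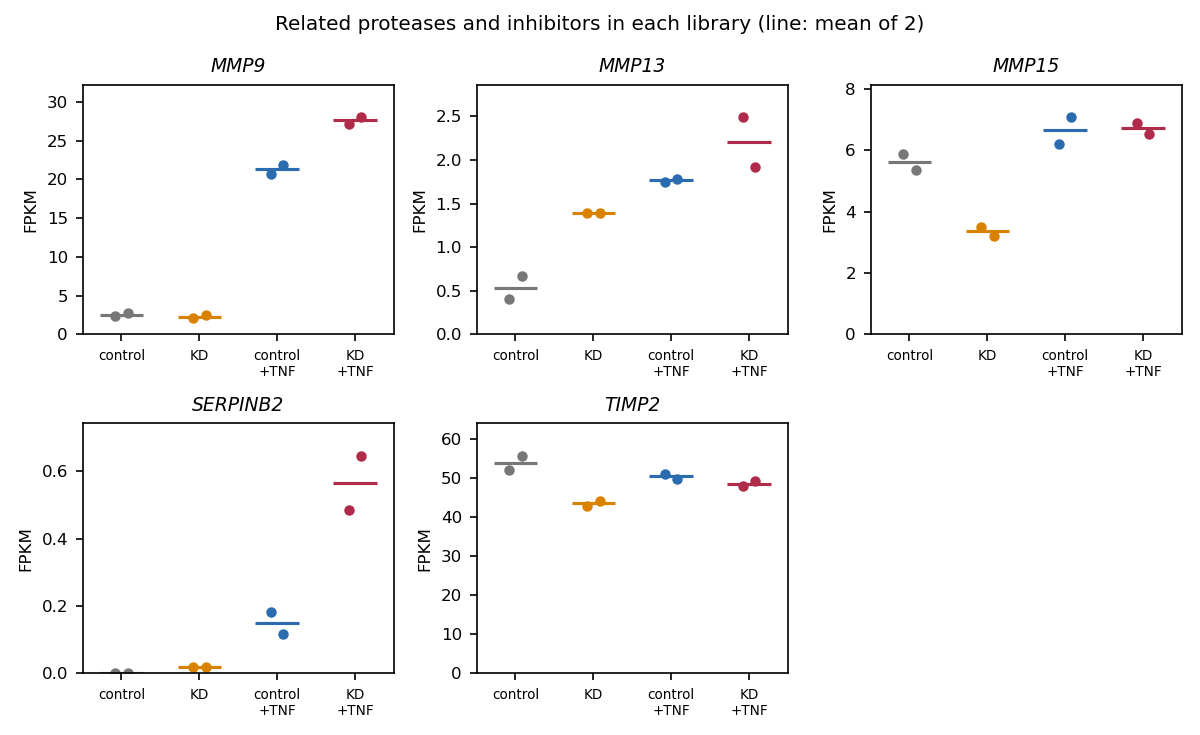
FPKM of MMP9, MMP13, MMP15, SERPINB2 and TIMP2 in the 4 groups, with a point for each library and a line at the mean of 2. MMP9 is near 2 FPKM in the 4 unstimulated libraries and above 20 in the 4 with TNF-α. SERPINB2, with 66 reads in all, lies at the floor in the 4 unstimulated libraries, and MMP13 is lowest in unstimulated control cells.

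Of 9 further inhibitors and activators 8 were tested, and none was called in control cells with TNF-α (1 at an unadjusted p under 0.05, 1 in the voom fit) or in KD against control with TNF-α (2 at an unadjusted p under 0.05, 0 in the voom fit). TIMP2 stood at 52.1 and 55.5 FPKM in unstimulated control cells, 42.7 and 44.1 in unstimulated KD cells, 51.1 and 49.7 in control cells with TNF-α and 47.9 and 49.1 in KD cells with TNF-α. It was lower in unstimulated KD cells by 0.30 (adjusted p = 0.00767), and by 0.03 with scaling to total reads. Without TNF-α 5 of the 8 were lower in KD cells and 1, SPOCK1, was higher, beside 30.2% and 29.8% of all genes, and the 5 became 3 with total reads or with the GC and length trend removed. Among the lower were BSG, a surface protein known to induce metalloproteinases, by 1.08 and CD151, a tetraspanin, by 1.07, with -0.50 and -0.47 once the trend was removed. FURIN, the convertase that activates MMP14, rose with TNF-α in KD cells by 1.13 (adjusted p = 6.70e-05), or by 0.53 with the trend removed and 0.75 with total reads. It was among the 4 genes that rose, while 2 fell, beside 31.1% and 31.4% of all genes. The 4 and 2 became 3 and 0 with the trend removed and 3 and 3 with total reads. In control cells FURIN differed by 0.38 (adjusted p = 0.0585), which passed with the GC and length trend removed (0.32, adjusted p = 0.0374).

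The genes whose pattern over the 8 libraries was closest to that of a member, by the distance between log2(FPKM + 1) values centred on their means, were found for the 3 members whose group means spanned at least 1. For PLAU (span 1.79) they were GFPT2 at a distance of 0.28, CYR61 at 0.30 and KLHL21 at 0.30. For PLAUR (span 1.31) they were OAF at 0.17, CMTM3 at 0.20 and SMAGP at 0.20, and for TIMP1 (span 1.10) COA4 at 0.23, SELENOS at 0.23 and ZNF408 at 0.24. The points share their libraries and their depth, and the distances carry no test.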

How the data were processed

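The authors deposited FPKM values for 58735 genes in 8 libraries, which match release 29 of GENCODE on GRCh38. The submitters' processing notes name CASAVA 1.8, fastp, HISAT2 2.0.5, featureCounts 1.5.0-p3 and DESeq2 1.20.0, and the study's methods name edgeR. Count tests were not run on FPKM. Each value times exon length was a whole multiple (within 0.05 reads) of a library constant for 100% of values, which gave the reads and the library sizes behind the FPKM. Differences of log2(FPKM + 1) were tested with limma 3.58.1 (R 4.3.3), with a mean per group, 4 residual degrees of freedom, a trend on expression and Benjamini-Hochberg adjustment over the 16528 genes that reached 10 reads in 2 libraries (rescaled to median depth) and 15 reads over all. Folds are on that scale and understate changes near 1 FPKM. Intervals are at 95%. The fit was also run on simulated reads. These held neither the uneven spread between groups nor the shift in composition of the unstimulated KD libraries, so that run does not vouch for the calls reported here. Python 3.11.15 (numpy 2.4.6, pandas 2.3.3, matplotlib 3.10.9) did the rest.

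The 9 genes, the lists and the tests were chosen with earlier results of these data known. Named besides the 9 are WSB2, the inhibitors SERPINB2 and TIMP2, and up to 4 called genes of largest difference per list and comparison, and the 3 protein-coding genes closest in pattern to a member. The values of 1 further gene that this rule names are not reported here, though it is counted in its list. Replicate numbers were not treated as pairs, since nothing in the labels or methods says that they mark a shared culture or day. The correlation of same-numbered deviations ran from -0.19 to 0.35, and it was highest between unstimulated control and unstimulated KD cells. Alternatives were a pseudocount of 0.1, no filter, a mean of at least 1 CPM, total reads, upper-quartile factors, only the 4 libraries compared, no unstimulated KD libraries, a replicate block, voom of the recovered reads, removal of a GC and length trend (splines with 5 degrees of freedom), each library left out, and the study's rule of P under 0.05 and a log2 fold change above 1. All columns were used.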

Additional observations from a re-analysis of the deposited data

Results flagged for a closer look

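For 8 of the 9 genes the response to TNF-α differed between KD and control cells by a test of the difference itself (limma interaction, adjusted p under 0.05, n = 2 libraries a group). On the log2(FPKM + 1) scale the difference was 0.82 for PLAU, 1.08 for PLAUR, 0.49 for PLAT, 0.53 for MMP2, 0.68 for MMP3, 0.71 for MMP14, 1.10 for TIMP1 and 0.54 for TIMP3, with KD cells higher throughout, and the sign held with total reads, upper-quartile factors and the GC and length trend removed. With that trend removed the value was 0.14 for MMP2 and 0.22 for MMP14, both no longer called, and with total reads PLAT, MMP2 and TIMP3 were not called. The interaction was called for 23.8% of all genes as higher. It rests on the unstimulated KD libraries, whose mitochondrial share, GC content and number of genes with a read stood apart from the other 6, and the part of this in the 8 values was not tested beyond the alternatives below. Groups of 2 libraries allow no check for a single outlying library.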

How the results depend on the processing

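Of 625 values of single genes under an alternative, 566 kept their direction and their side of the threshold, 21 lost a call, 11 gained one and 27 turned sign, 3 of these from a called value and none to one. The replicate block left 0, 7, 1, 8 and 8 genes called for KD against control with and without TNF-α, TNF-α in control and in KD cells and the interaction, as reported, and changed none of the 45 calls. For KD against control with TNF-α, 1 gene was called with only the 4 libraries compared, with voom and with the GC and length trend removed, and 0 with any library left out. Without TNF-α 3 were called with total reads, 4 with the trend removed, 0 by the study's rule and 5 to 8 with a library left out. For TNF-α in control cells these were 2 with the trend removed, 0 by the study's rule and 1 to 3 (3 without unstimulated control replicate 1), for TNF-α in KD cells 3 by the study's rule and 7 to 9, and for the interaction 5 with total reads, 2 by the study's rule and 7 to 8. The study's rule was applied to limma differences of log2(FPKM + 1), where PLAU in control cells lay just under its limit, at 0.98.

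With total reads the sign turned for TIMP3 in KD against control with TNF-α (-0.0031), MMP3 without it (0.12), PLAT (-0.0030) and MMP14 (-0.0409) in control cells with TNF-α and TIMP3 in KD cells (-0.0437). Upper-quartile factors turned MMP14 in control cells (-0.0016) and the MMP1 interaction (0.0588), which voom turned too (0.0555). Removal of the trend turned TIMP3 in KD against control with TNF-α (-0.0030), PLAU (0.0174), MMP1 (-0.0775) and MMP14 (0.0871) without it, MMP14 in control cells (-0.0186), MMP1 in KD cells (0.0346) and the MMP1 interaction (0.18). With a library left out, values crossed 0 for MMP1 (-0.0412 to 0.22) and TIMP3 (-0.0142 to 0.0468) in KD against control with TNF-α, for MMP2 (-0.0335 to 0.0154), MMP14 (-0.0280 to 0.0980) and TIMP1 (-0.24 to 0.23) in control cells, and for the MMP1 interaction (-0.14 to 0.12). The cause of these changes was not tested.

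Over all genes, calls for KD against control with TNF-α ran from 7 to 68 between settings other than leaving a library out, beside 19 reported, and from 0 to 3 with a library left out. For TNF-α in control cells they ran from 238 with only the 4 libraries compared (368 without a filter, 443 without the unstimulated KD libraries) to 912 with the trend removed, beside 701 reported, and from 229 to 2130 with a library left out (2130 without unstimulated control replicate 2). The PLAT interaction lost its call without KD replicate 2 with TNF-α (0.46, adjusted p = 0.0514). Of the 9 genes, 8 had at least 448 reads in every library, and MMP1, with 4 to 17 reads in a library, was left out by the 1 CPM filter.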

Other observations

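The ADAM and ADAMTS families, which release membrane proteins from the cell surface or cut matrix proteoglycans and procollagens, had 14 genes in a list of their own, of which 12 were tested. In unstimulated KD cells 5 were higher and 2 lower than in control cells, beside 29.8% and 30.2% of all genes, with 4 to 6 higher and 2 to 3 lower under the other scalings, and the median was 0.16. ADAM9 stood at 18.9 and 26.8 FPKM in unstimulated control cells, 59.2 and 64.6 in unstimulated KD cells, 26.4 and 23.8 in control cells with TNF-α and 26.7 and 26.2 in KD cells with TNF-α, and ADAM10, the main sheddase of many surface receptors, at 2.896 and 4.04, 8.94 and 9.46, 3.85 and 3.45, and 3.37 and 3.58 in the same order. They were higher in unstimulated KD cells by 1.42 (adjusted p = 0.000236, limma with Benjamini-Hochberg adjustment) and 1.203 (adjusted p = 0.000298), and the values with the GC and length trend removed were 0.78 and 0.37. ADAM15 went the other way, from 27.6 and 23.8 FPKM in unstimulated control cells to 11.5 and 10.1 in unstimulated KD cells, a difference of -1.18 (adjusted p = 0.000146), or -0.71 with the trend removed. These are the libraries that stood apart in composition, and its part in the values was not tested further.

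With TNF-α no gene of the families was called in KD against control (4 at an unadjusted p under 0.05, 0 in the voom fit), and TNF-α in control cells gave 0 calls (2 at an unadjusted p under 0.05, 1 in the voom fit). In KD cells with TNF-α 3 of the 12 rose and 2 fell, beside 31.1% and 31.4% of all genes. The interaction was called for 1 as higher and 2 as lower, beside 23.8% and 22.3% of all genes.

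MMP9 per 100 FPKM of TIMP1 stood at 0.390 and 0.631 in unstimulated control cells, 0.698 and 0.815 in unstimulated KD cells, 4 and 4.42 in control cells with TNF-α and 4.18 and 4.32 in KD cells with TNF-α.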
